A study of Sus scrofa with 6 samples.

Results

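The genes described here are C1R, C1S, C1QC, C4A and C3, which encode components of complement, the plasma protein cascade that marks targets for clearance. They were taken as the probe sets whose platform gene symbol is exactly one of these names, which gave 5 probe sets, 1 per gene, of 23999 that are not array controls and 5 of 6765 genes with a single platform symbol. The study set the longissimus dorsi, a back muscle, of 3 boars of the Northeastern Indigenous breed against that of 3 boars of the control breed, Large White. All 6 animals were 150 days old and had been raised under the same feeding and housing. Each animal gave 1 Affymetrix Porcine Genome Array, and the labels call the arrays biological replicates. The 5 genes were selected on earlier results of the same breed comparison (their log2 differences and p-values between the breeds), so their breed differences are a description and carry no test.

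In the classical pathway, C1q binds antibody or altered surfaces and activates the proteases C1r and C1s. C1s then cleaves C4 and C2, whose fragments form the enzyme that cleaves C3, and C3 fragments coat the target and lead on to the membrane attack complex. The liver makes most circulating complement, while C1q comes mainly from macrophages and dendritic cells, and C1r and C1s are also made by fibroblasts and other tissue cells. The 5 genes therefore cover the recognition subunit (C1QC), both proteases (C1R, C1S), the first substrate (C4A) and the central component (C3).

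The classical pathway genes C1R, C1S, C1QC and C4A were all dimmer in the Northeastern Indigenous boars, with differences of -3.30 to -2.003 log2 units, and for none of these did the breeds overlap. C3 differed by -0.76 log2 units and its breeds overlapped. For comparison, 12.3% of the 5438 named genes measured were lower in Northeastern Indigenous boars with no overlap; nothing is read from 4 of 5 here, since this contrast led to the choice. Limma called 0 of 14399 probe sets (0%) at an adjusted p under 0.05, with 18.8% of them at an unadjusted p under 0.05. The count of calls was 1 when Large White replicate 1 was left out and 4421 when replicate 2 was. Values are quantile normalized log2 intensities unless called deposited, and quoted errors of differences are the SE of limma's fit over 3 arrays per breed.

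Some arrays stood apart before any gene was compared. Across probe sets, which are not independent replicates, the correlation with the Northeastern Indigenous arrays was 0.71 to 0.76 for Large White replicate 1, 0.92 to 0.95 for replicate 2 and 0.84 to 0.89 for replicate 3. The skeletal muscle list, 19 measured genes of 25, lay at a median of -3.27 log2 units from the mean of the Northeastern Indigenous arrays on Large White replicate 1, and at 0.00 and -0.17 on replicates 2 and 3. ADIPOQ, which encodes adiponectin, a hormone of fat cells, read 13.64, 7.22 and 12.50 on the Large White arrays in replicate order. The differences of the 5 genes are therefore also given against Large White replicate 2 alone. In bulk tissue fewer cells of a type and less RNA per cell cannot be told apart.

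C1R, the protease that activates C1s, had log2 intensities of 9.55, 10.03 and 8.65 in Northeastern Indigenous boars, against 12.16, 11.59 and 12.30 in Large White boars. The lowest Large White array lay 1.56 above the highest Northeastern Indigenous one, a gap wider than the range within either breed (1.38 in Northeastern Indigenous and 0.72 in Large White boars). The breed means were 9.41 ± 0.70 in Northeastern Indigenous and 12.02 ± 0.38 in Large White boars (SD, n = 3 each), a difference of -2.61 ± 0.41 (SE), or 6.09-fold lower intensity. Its Large White range was the narrowest of the 5 genes. The Northeastern Indigenous mean minus Large White replicates 1, 2 and 3 was -2.75, -2.18 and -2.90.

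C1S, the protease that cleaves C4 and C2, read 11.17, 11.56 and 11.32 in Northeastern Indigenous boars, against 13.84, 12.78 and 13.44 in Large White boars. The Northeastern Indigenous arrays lay within 0.40 of each other and the Large White arrays within 1.05, and the gap between the breeds was 1.22. The means were 11.35 ± 0.20 in Northeastern Indigenous and 13.35 ± 0.53 in Large White boars (SD, n = 3 each), a difference of -2.003 ± 0.30 (SE). Against Large White replicate 2 alone it was -1.44. C1R and C1S are neighbours in the pig assembly Sscrofa11.1 (RefSeq), with 0 protein-coding genes between them. They did not share an order within the breeds: C1R was dimmest on Northeastern Indigenous replicate 3 and brightest on Large White replicate 3, whereas C1S was dimmest and brightest on replicates 1.

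C1QC, the C chain of the recognition molecule C1q, read 9.75, 10.30 and 9.26 in Northeastern Indigenous boars, against 13.82, 11.76 and 13.62 in Large White boars. It had the widest gap of means of the 5 genes, 9.77 ± 0.52 in Northeastern Indigenous against 13.07 ± 1.13 in Large White boars (SD, n = 3 each), a difference of -3.30 ± 0.58 (SE), or 9.82-fold lower intensity. It also had the widest Large White range, 2.06 log2 units, with replicate 2 well below the other Large White arrays. Against that array alone the difference was -1.99, compared with -4.05 and -3.85 against replicates 1 and 3. As deposited, the linear intensity was 817, 1210.4 and 583 in Northeastern Indigenous boars and 10688, 3555 and 10139 in Large White boars.

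C4A, the component cleaved by C1s, read 7.40, 7.75 and 6.87 in Northeastern Indigenous boars, against 9.66, 8.91 and 9.92 in Large White boars. The lowest Large White array lay 1.16 above the highest Northeastern Indigenous one. The means were 7.34 ± 0.44 in Northeastern Indigenous and 9.50 ± 0.52 in Large White boars (SD, n = 3 each), a difference of -2.16 ± 0.37 (SE), and -1.57 against Large White replicate 2 alone. In human, C4A has a near-identical neighbour, C4B; whether this probe set reads more than 1 porcine copy was not tested.

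C3, on which all complement pathways converge, read 9.09, 9.40 and 9.93 in Northeastern Indigenous boars, against 10.26, 9.54 and 10.91 in Large White boars. Northeastern Indigenous replicate 3 was above Large White replicate 2, and 8 of the 9 pairs of a Northeastern Indigenous and a Large White array had the Northeastern Indigenous one dimmer, against 9 of 9 for each of the other genes. The means were 9.47 ± 0.42 in Northeastern Indigenous and 10.24 ± 0.68 in Large White boars (SD, n = 3 each), a difference of -0.76 ± 0.42 (SE). Against Large White replicate 2 alone it was -0.07, and without Large White replicate 3 it was -0.43. Levels of different probe sets are not compared here, since each has its own brightness.

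**Figure D1:**
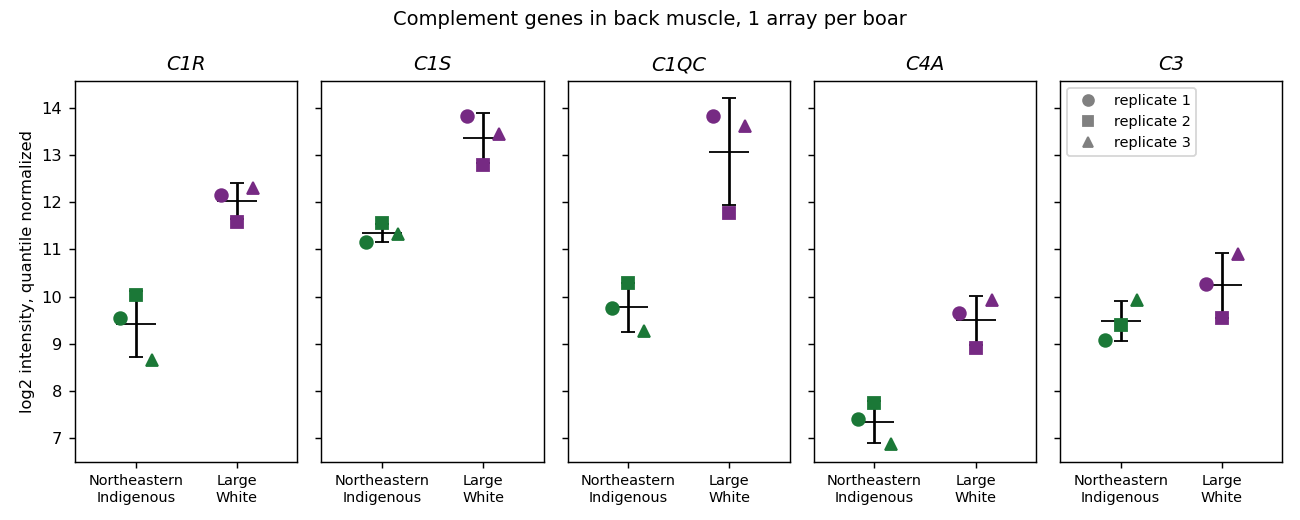
Quantile normalized log2 intensity of the 5 complement genes on each array, Northeastern Indigenous (green) left of Large White (purple); symbols give the replicate number, and bars the mean ± SD over 3 arrays. The breeds do not overlap for C1R, C1S, C1QC and C4A and overlap for C3, and Large White replicate 2 is the lowest array of its breed for all 5 genes; heights of different genes are not comparable.

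Within the breeds the 5 genes did not all order the arrays alike. Large White replicate 2 was the dimmest Large White array for all 5. Among the Northeastern Indigenous arrays, replicate 2 was the brightest for C1R, C1S, C1QC and C4A, while replicate 3 was the dimmest for C1R, C1QC and C4A and the brightest for C3. Profiles were compared by the root mean square difference between log2 values over the 6 arrays, each gene centred on its own mean. C1R and C4A were the most alike pair at 0.28 log2 units, followed by C1S and C4A at 0.30. C1R lay at 0.50 from C1S and 0.58 from C1QC, and C1QC at 0.69 from C4A and 0.78 from C1S. The pairs with C3 lay from 0.73, with C1S, to 1.41, with C1QC, so C1S was closer to C3 than to C1QC. All pairs share the same 6 arrays and the breed difference that led to their choice, so these values are a description.

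**Figure D2:**
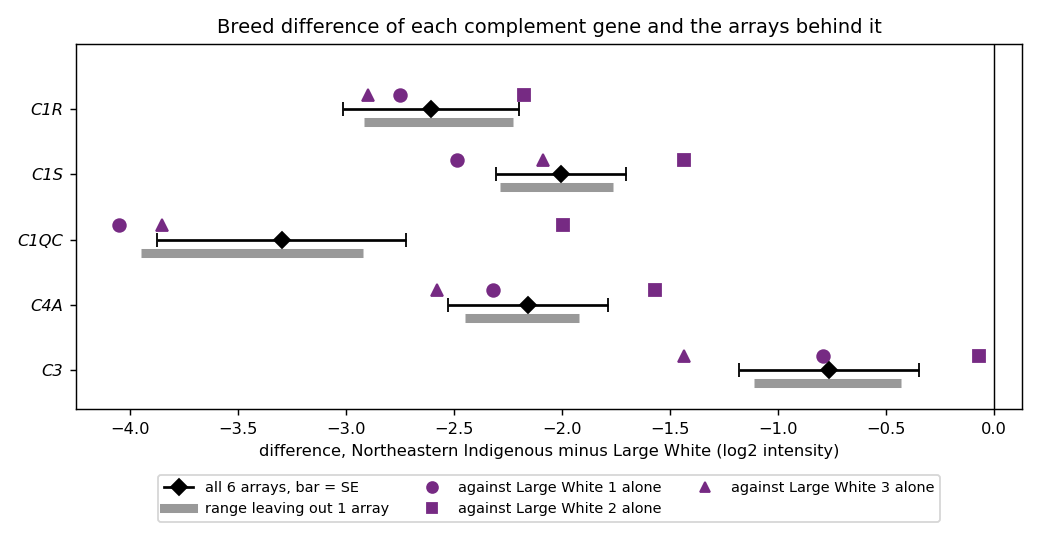
Difference of Northeastern Indigenous minus Large White log2 intensity for each gene, with the limma SE (black), the range when 1 array is left out (grey), and the Northeastern Indigenous mean against each Large White array alone (purple). C1R, C1S, C1QC and C4A lie at -1.44 or below against every Large White array, while C3 reaches -0.07 against Large White replicate 2.

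Some genes outside the complement system had nearly the same profile over the 6 arrays, among 5294 named genes compared by that measure. The genes named are the closest of all those compared, so they lie far under the median gene by construction. The measure also includes the breed difference that led to the choice, so these likenesses are a description. The closest to C1R was FKBP10, a chaperone of collagen folding, at 0.27 log2 units, where the median gene lay at 1.47. C4A, C1QA, the A chain of C1q, and CD2, a surface protein of T cells, came next at 0.28, 0.29 and 0.30. CD2 read 5.23, 6.43 and 4.62 in Northeastern Indigenous boars, against 8.42, 7.32 and 7.92 in Large White boars. Its Northeastern Indigenous replicates 1 and 3 were thus under 5.85, the level of the filter on dim probe sets. FKBP10 was under that level on Northeastern Indigenous replicate 3, at 5.62. The likeness of CD2 to C1R therefore rests partly on dim readings. The closest to C1S were CPQ, a plasma carboxypeptidase (0.12), LY86, a partner of a Toll-like receptor homologue (0.15), SLA-DMB, of class II peptide loading (0.16), and IDS, a lysosomal sulfatase (0.18), with a median gene at 1.15.

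The closest to C1QC were EPB41L3, a membrane skeleton protein (0.35), the Fc receptor FCGR2B (0.35), MYOC, a secreted glycoprotein (0.35), and the Fc receptor FCGR3A (0.38), with a median gene at 1.87. For C4A they were C1QA (0.19), FKBP10 (0.27), C1R (0.28) and SLA-DMB (0.28), with a median gene at 1.25. C3 had none of these among its closest genes. Those were LHFPL2, RCAN3, an inhibitor of calcineurin, and CDH13, a cadherin anchored without a transmembrane domain, at 0.18 to 0.19, and F3, the tissue factor that starts coagulation, at 0.22, with a median gene at 0.77. F3 read 8.05, 8.31 and 8.33 in Northeastern Indigenous boars, against 9.35, 8.47 and 9.84 in Large White boars.

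The rest of the complement system was followed in a list of 50 other genes, of which 19 were measured above the filter on dim probe sets, 11 were dimmer than it and 20 had no probe set named here. Of the 19, limma called 0 at an adjusted p under 0.05, where the background was also 0%, and the smallest adjusted p was 0.223. The difference was negative for 16 and positive for 3, where it was negative for 2466 and positive for 2972 of all named genes. The median was -1.04 log2 units, against 0.09 over all named genes. At an unadjusted p under 0.05 there were 9 lower (47.4%) and 0 higher, where 11.4% of all named genes were lower and 9.42% higher. The breeds did not overlap in 7 of the 19, all lower in Northeastern Indigenous boars (36.8%, against 12.3% of all named genes). In the gene lists described below that share was 90.5% (interferon-induced), 50% (macrophage and leukocyte), 38.9% (fibroblast) and 12.5% (adipocyte). It was 0% in the skeletal muscle, endothelial, red blood cell and hepatocyte lists.

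Among the genes that start the cascade, C1QA was most like the genes above. It read 7.85, 8.37 and 7.52 in Northeastern Indigenous boars, against 10.58, 9.53 and 10.94 in Large White boars, a difference of -2.44 ± 0.43 (SE; limma adjusted p = 0.223). It neighbours C1QC on Sscrofa11.1 with 0 protein-coding genes between them, and against Large White replicate 2 alone the 2 chains differed by -1.62 (C1QA) and -1.99 (C1QC). C2, the partner of C4 in the C3-cleaving enzyme, averaged 5.98 ± 0.70 in Northeastern Indigenous and 7.45 ± 1.00 in Large White boars (SD, n = 3 each), with overlap, and stood at -0.32 against Large White replicate 2 alone. FCN2, a ficolin of the lectin pathway, differed by -1.81 ± 0.62 (SE), and by -0.65 against Large White replicate 2 alone.

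Genes of the alternative pathway lay closer to 0. CFB, the alternative pathway counterpart of C2, differed by -0.58 ± 0.34 and CFD, the protease that cleaves factor B and is also known as the fat-cell product adipsin, by -0.68 ± 0.32 (SE). CFD read 12.16, 12.68 and 11.54 in Northeastern Indigenous boars, against 12.85, 12.51 and 13.05 in Large White boars, so the breeds overlapped. CFP, properdin, which stabilises the alternative C3-cleaving enzyme, differed by 0.18 ± 0.40 (SE), and by -0.13 without Large White replicate 1. The limma adjusted p of these 3 genes was 0.291 to 0.794.

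Regulators of complement were dimmer in Northeastern Indigenous boars in 7 of 7 measured, with a median of -1.41, and none passed. Of all 5438 named genes, 2466 were dimmer. The breeds did not overlap in 2 of the 7 regulators. On Large White replicate 2 their list lay at a median of 0.07 from the Northeastern Indigenous mean. SERPING1, the inhibitor of C1r and C1s, read 10.86, 11.53 and 10.74 in Northeastern Indigenous boars, against 13.12, 11.49 and 13.08 in Large White boars. Its difference was -1.52 ± 0.48 (SE, limma adjusted p = 0.227), but Large White replicate 2 lay among the Northeastern Indigenous arrays. Against that array alone the difference was -0.45. The proteases it inhibits did not overlap on that array, at -2.18 for C1R and -1.44 for C1S.

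C4BPA, a chain of the C4b-binding protein, differed by -2.09 ± 0.58 (SE; limma adjusted p = 0.224), and PROS1, protein S, which binds that protein in plasma, by -2.06 ± 0.82. The membrane regulators CD46 (-1.04 ± 0.43), CD55 (-1.41 ± 0.73) and CD59 (-0.73 ± 0.57) and the secreted CLU, clusterin (-0.49 ± 0.45), had smaller differences (SE). A dimmer probe set of CD46 differed by -0.70 and a dimmer one of CD59 by -0.49. Against Large White replicate 2 alone C4BPA stood at -0.97, PROS1 at -0.07 and CD46 at -0.12, and CD55, CD59 and CLU were positive at 0.27, 0.68 and 0.40.

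Receptors and terminal components were thinly measured. VSIG4, a macrophage receptor for C3 fragments, read 7.49, 8.28 and 7.81 in Northeastern Indigenous boars, against 10.85, 8.58 and 10.85 in Large White boars, a difference of -2.23 ± 0.63 (SE; limma adjusted p = 0.224). ITGB2, the beta chain of complement receptors on leukocytes, differed by -1.14 ± 0.42 (SE). Against Large White replicate 2 alone they stood at -0.72 and -0.63. Dimmer probe sets of VSIG4 above the filter differed by -1.17 and -1.51 between the breeds. CALR differed by -0.07 ± 0.25 and CD93 by 0.54 ± 0.59 (SE), but CD93 was at -0.73 against Large White replicate 2 alone and at -0.08 without Large White replicate 1. Of the terminal components only C9 (-0.71 ± 0.62) and C8G (0.29 ± 0.45) were above the filter, and C9 was at 0.02 and C8G at 0.05 without Large White replicate 1.

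**Figure D3:**
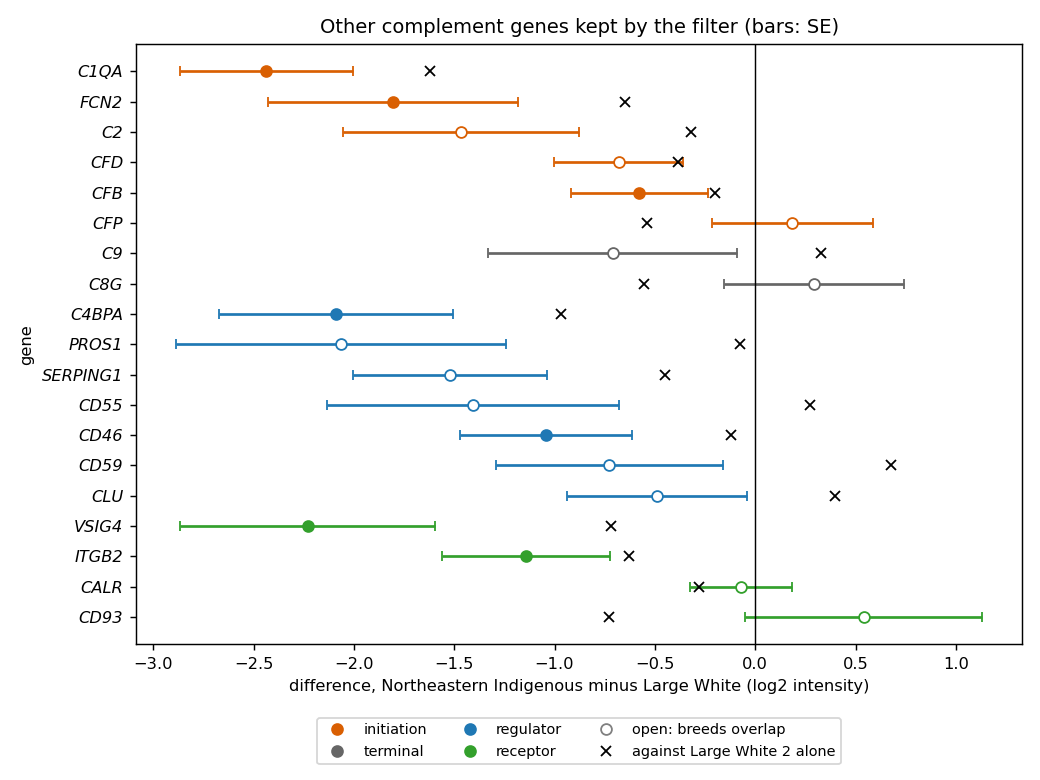
Difference of Northeastern Indigenous minus Large White log2 intensity for the 19 other complement genes above the filter, by role, with the limma SE; open circles mark genes whose breeds overlap, and crosses the Northeastern Indigenous mean minus Large White replicate 2 alone. C1QA has the most negative difference (-2.44) and the most negative cross (-1.62), and the crosses of CD55, CD59, CLU and C9 lie above 0.

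The counts among the other complement genes depended on single arrays. Without Large White replicate 2, limma called 11 of the 19, all lower in Northeastern Indigenous boars, where 17.1% of all named genes were called lower. Without Large White replicates 1 and 3 together the median was -0.39; that fit has 1 Large White array, assumed to vary like the Northeastern Indigenous ones, so its 0 calls say little. On Large White replicate 2 alone, 11 of the 19 read above every Northeastern Indigenous array, as did 29.3% of all named genes. The count of 9 at an unadjusted p under 0.05 was 3 without Northeastern Indigenous replicate 1 and 5 without Northeastern Indigenous replicate 3, where 5.9% and 5.5% of all named genes were lower. It was 5 or 4 when Large White replicate 1 or 3 was left out (6.7% and 5.1% of all named genes), and 13 when replicate 2 was (22%). The count with no overlap, 7, was 11 without Northeastern Indigenous replicate 2 and 15 without Large White replicate 2, where 18.3% and 29.2% of all named genes met it. The median was -0.67 without Large White replicate 1.

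The macrophage and leukocyte, fibroblast and adipocyte lists were brighter by median on Large White replicates 1 and 3, as were the 5 complement genes. On replicate 2 these lists lay at 0.60, 0.32 and -0.07. There C1R, C1S, C1QC and C4A stayed at 1.44 or more, and C3 was at 0.07. The part of these cell types in the differences was not tested. The endothelial list was not brighter on any Large White array. Relative to the Northeastern Indigenous mean it was at -0.41, -0.02 and -0.22 in replicate order. The macrophage and leukocyte list, 16 measured genes of 24, lay at a median of 2.31, 0.60 and 2.12 log2 units over the mean of the Northeastern Indigenous arrays on Large White replicates 1, 2 and 3. All 16 had negative differences (median -1.73), as did 2466 of all 5438 named genes, and limma called 0 of the 16. ITGB2 is both in this list and among the other complement genes. The summed intensity of the 16 genes was 4351 to 8038 on the Northeastern Indigenous arrays and 9569 to 32063 on the Large White arrays. AIF1, a macrophage marker, read 8.98, 9.46 and 7.85 in Northeastern Indigenous boars, against 11.90, 10.32 and 11.32 in Large White boars. CSF1R and CD68, which define macrophages, had no probe set named here.

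The fibroblast list, 18 of 21 genes, lay at 1.89, 0.32 and 1.95 on Large White replicates 1, 2 and 3, with 17 of 18 differences negative (median -1.36). Its summed intensity ran from 29449 to 44536 on the Northeastern Indigenous arrays and from 48485 to 148821 on the Large White arrays. The adipocyte list, 8 of 14 genes, lay at 4.67, -0.07 and 3.46 on those arrays, with 7 of 8 differences negative (median -2.74). Its summed intensity was 5839 to 8497 on the Northeastern Indigenous arrays and 5549 to 59169 on the Large White arrays. Limma called 0 genes in both lists. On Large White replicate 2 the adipocyte, fibroblast, and macrophage and leukocyte lists lay at -0.07, 0.32 and 0.60 from the Northeastern Indigenous mean. On that array C1R, C1QC, C4A, C1S and C3 lay 2.18, 1.99, 1.57, 1.44 and 0.07 above it, all 5 being genes selected on this contrast. The list of 19 other complement genes lay at a median of 0.39 on that array, and at 1.79 and 1.25 on Large White replicates 1 and 3. The part of these cell types in the values was not tested.

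Interferon-induced genes differed from those lists on Large White replicate 2. The 21 measured genes of 32 lay at a median of 1.66, 1.40 and 1.10 on Large White replicates 1, 2 and 3, with all 21 differences negative (median -1.59) and 0 called by limma. Their summed intensity was 6649 to 11790 on the Northeastern Indigenous arrays and 22884 to 33809 on the Large White arrays. C1R lay at 2.75, 2.18 and 2.90 on the same arrays. Among Northeastern Indigenous arrays this list was highest on replicate 3 (0.30), the array on which C1R (-0.76), C1QC (-0.51) and C4A (-0.47) were lowest. On the same array C3 was at its highest for that breed (0.46) and C1S lay at -0.03. A link between this list and the complement genes was not tested.

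Liver, endothelial and blood markers were followed for the sources of plasma protein transcripts. Of 16 named hepatocyte genes, 14 were below the filter, among them ALB, albumin, which read 1.23 to 6.70 in Northeastern Indigenous boars and 4.16 to 6.48 in Large White boars. The endothelial list, 9 of 12 genes, had a median difference of 0.25, and the red blood cell list, 4 of 9, a median of -0.37, with 0 called in both. The red blood cell list lay 1.81 above the Northeastern Indigenous mean on replicate 2 of that breed, where C1R, C1S, C1QC and C4A were brightest. The macrophage and leukocyte (0.69), hepatocyte (0.50), fibroblast (0.37), adipocyte (0.36) and endothelial (0.30) lists were also highest of that breed there. The skeletal muscle (0.08) and interferon-induced (0.30) lists were highest on its replicate 3. On Large White replicates 1, 2 and 3 the red blood cell list lay at -0.05, -0.03 and 1.07 from the Northeastern Indigenous mean.

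**Figure D4:**
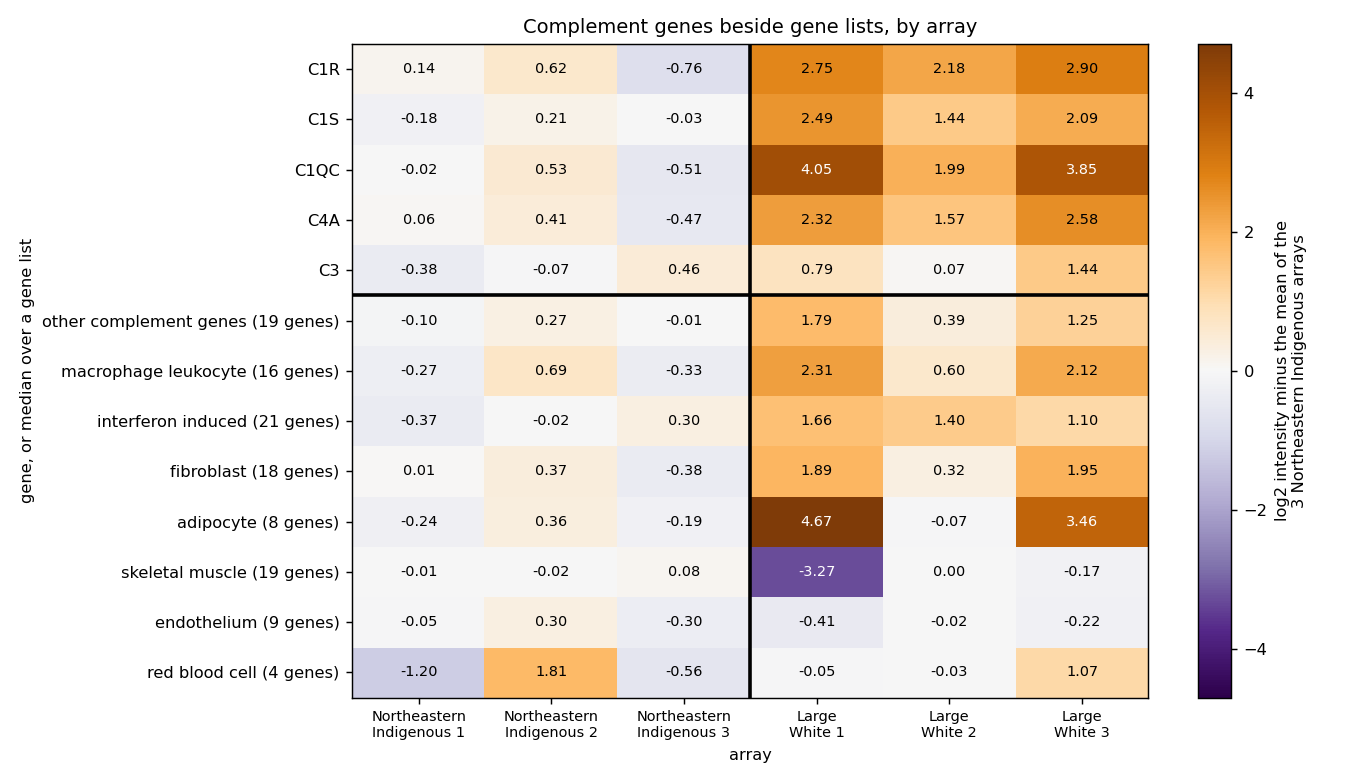
Log2 intensity of each complement gene, and the median over each gene list, on every array, minus the mean of the 3 Northeastern Indigenous arrays. C1R, C1S, C1QC and C4A are at 1.44 or more on all Large White arrays, the interferon-induced list is at 1.66, 1.40 and 1.10 on them, and the adipocyte list is at -0.07 on Large White replicate 2.

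The deposited intensities, before quantile normalization, gave the same overlap for each of the 5 genes. C1R was at 705, 1001 and 380.1 in Northeastern Indigenous boars, against 4159, 3143 and 4699 in Large White boars. C3 was at 508, 641 and 929 in Northeastern Indigenous boars, against 1319, 696 and 1983 in Large White boars. On the deposited scale the log2 differences were -2.61 for C1R, -1.78 for C1S, -3.13 for C1QC, -2.30 for C4A and -0.86 for C3.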

How the data were processed

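The authors deposited linear intensities, 1 per animal for each probe set; software and settings: not given in the sources used here. The mean deposited intensity without the lowest and highest 2% was 500.1 to 500.2 on all 6 arrays, so they had been scaled before deposit. No detection calls or depth were used, and the number of arrays limits precision. Of 24123 probe sets, 124 controls were left out, and names came from the platform annotation: 10069 probe sets had 1 symbol, 198 several and 13732 none. Matching gene identifiers to RefSeq (Sscrofa11.1) changed 0 symbols.

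Deposited intensities were taken as log2 and quantile normalized, because array medians spanned 0.35 log2 units. The brightest probe sets by mean, from the 40th percentile up, were kept (14399, with 5438 named genes, each by its brightest probe set; a mean log2 of at least 5.85). Northeastern Indigenous minus Large White was fitted in R 4.3.3 with limma 3.58.1 (lmFit, eBayes with trend; 4 residual degrees of freedom), two-sided, with Benjamini-Hochberg adjustment over all kept probe sets. The fit was tested on simulated data. The members and gene lists were chosen with earlier results of these data known, and the lists got counts and medians, with no set test. Named beyond the 5 genes are a fixed set of complement genes, the 3 of smallest p in each direction, the 4 genes of closest profile to each and the brightest list genes. Of that fixed set, for example, C1QB, CFI, C3AR1 and C5AR1 had no probe set named here. Alternatives were other scalings, filters, an offset, variance priors, probe set averages, the replicate block, a looser threshold and leaving out arrays.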

Additional observations from a re-analysis of the deposited data

How the results depend on the processing

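All 70 recomputed differences of the 5 genes under the alternatives were negative, and 66 moved by less than the pooled SD of the replicates. The other 4 came without Large White replicates 1 and 3 together (C1S -1.44, C1QC -1.99, C4A -1.57, C3 -0.07). Other filters, probe set averages and the replicate block could not change these differences, so they repeat the main values. The genes were selected on this contrast, so both counts are a description. Leaving out 1 array gave -2.92 to -2.23 for C1R, -2.29 to -1.76 for C1S, -3.95 to -2.92 for C1QC, -2.45 to -1.92 for C4A and -1.11 to -0.43 for C3. The count of 0 called probe sets became 1 with arrays centred on their medians, with probe sets averaged per gene and at an adjusted p under 0.1; leaving out 1 array gave 0 to 4421. Other complement genes called were 0 in all settings except those leaving out 1 array (0 to 11). Their count at an unadjusted p under 0.05, lower, was 9, and leaving out 1 array gave 3 to 13, with 1 without Large White replicates 1 and 3, where 1 Large White array was left and was assumed to vary like the Northeastern Indigenous ones. The count with no overlap was 7, and 7 to 15 with 1 array left out, and 11 without Large White replicates 1 and 3. Their median was -1.43 to -0.67 with 1 array left out. With no filter, 30 genes were measured, with a median of -0.63. The replicate number as a block (replicate block) gave 0 called probe sets and 6 of the 19 complement genes lower at an unadjusted p under 0.05; it does not pair the animals, since same-numbered deviations correlated at -0.02, -0.16 and -0.11 and no array correlated best with its own number. Centring or deposited scaling moved the median of all genes by under 0.1. Dim probe sets limit the terminal components, of which 4 of 6 named were below the filter.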

Other observations

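Complement genes below the filter on dim probe sets were not tested. C5, the component cleaved to start the membrane attack complex, read 2.45, 1.12 and 0.31 log2 units in Northeastern Indigenous boars, against 4.95, 4.35 and 4.88 in Large White boars, so the breeds did not overlap at these low intensities. FCN1, a ficolin of monocytes, read 3.50, 3.73 and 6.30 in Northeastern Indigenous boars, against 6.25, 4.42 and 6.98 in Large White boars, with overlap. The brighter probe set of C7, another terminal component, averaged 5.85 ± 0.28 in Northeastern Indigenous and 5.42 ± 1.04 in Large White boars (SD, n = 3 each).

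Of the hepatocyte list, HP and APOA1 were above the filter. HP, haptoglobin, an acute-phase plasma protein, read 7.85, 7.96 and 6.42 in Northeastern Indigenous boars, against 4.40, 4.49 and 5.69 in Large White boars. All Large White values were under the filter level of 5.85, so HP was kept through the Northeastern Indigenous arrays and no fold is given; it did not pass (limma adjusted p = 0.224). APOA1, the main protein of high-density lipoprotein, read 10.11, 10.45 and 9.43 in Northeastern Indigenous boars, against 11.81, 9.46 and 11.40 in Large White boars, with overlap.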
